A study of Homo sapiens with 3 samples.

Results

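The kallikrein locus on chromosome 19 holds KLK3, KLK2, KLK4 and KLK15, and 21 of the 59983 regions called in the study lay in it. A region belonged to the locus when its centre fell in the 100 kb window chr19:51320000-51420000 (hg19). By this rule 6 of 13382 CK2α regions, 6 of 21819 Pol II regions from cells given the vehicle DMSO and 9 of 24782 Pol II regions from cells given the CK2 inhibitor TBBz were members. At KLK3 and KLK2, Pol II was called near the gene end with DMSO and near the gene start with TBBz, whereas at KLK4 and KLK15 the Pol II lists of both treatments named the same sites.

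Kallikreins are secreted serine proteases encoded in a tandem cluster. KLK3 encodes prostate-specific antigen, which liquefies the seminal clot, and KLK2 encodes a close relative that can activate the KLK3 precursor. Both are standard readouts of the androgen receptor, which binds an enhancer upstream of KLK3 and elements in the proximal promoters. KLK4 encodes a protease made in prostate and in developing enamel and is also androgen-responsive, and KLK15 encodes a further, less studied protease. RNA polymerase II (Pol II) starts at the gene start, often pauses shortly after it, moves through the gene and is released beyond the site where the transcript is cleaved. CK2 is a serine/threonine kinase with many substrates, and CK2α is one of its catalytic subunits.

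LNCaP, an androgen-responsive line from a prostate carcinoma that carries a mutated androgen receptor, was used at passages 40 to 45. All cells spent 3 days in medium with 5% charcoal-stripped serum and received 100 nM dihydrotestosterone (DHT), the agonist of the androgen receptor, so no library shows the locus without hormone. Chromatin immunoprecipitation followed by sequencing (ChIP-seq) gave 1 library per group. The groups were CK2α with DHT alone, Pol II with 25 μM DMSO (as the label words it) plus DHT, and Pol II with 25 μM TBBz plus DHT. DMSO or TBBz was present for 2.5 hours, and DHT for the last 1.5 hours of these. For CK2α the treatment label gives 2.5 hours of DHT and the protocol 90 min, and both Pol II libraries carry a source name with TBBz in it, so they were told apart by treatment label. If these libraries were exchanged, start and end would trade places in the statements on KLK3 and KLK2.

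Library totals were 15466579 to 22345614 tags, and the TBBz library was the deepest. Of its tags (mapped reads) 12.6% were in called regions, against 6.79% with DMSO and 1.65% for CK2α, and the calling command lists no control. The peak caller dropped candidates less than 4-fold above the surrounding 10 kb, which removed 76.2% of the CK2α, 53.7% of the DMSO and 35.3% of the TBBz candidates. The tag threshold for a call was 12 for CK2α, 11 with DMSO and 13 with TBBz. A missing region can therefore be a site without CK2α or Pol II, or a site with signal below the threshold. It can also be a site amid much signal of the same protein. These cannot be told apart in lists that give position and order only. With 1 library per group there was no replicate spread, and no test between treatments was made. Intervals are exact (Clopper-Pearson) 95% binomial intervals that cover counting error only.

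The proximal promoters of KLK3 and KLK2 are shown because the treatments differed at these genes and because the promoters resemble each other closely. The sequences are from RefSeq on GRCh38.p14, plus strand, and run from 250 bases before the start. That of KLK3 is chr19:50854665-50854964 and that of KLK2 is chr19:50873189-50873488 in that build. Capitals mark a 15-base element and the letters TTTATA, which are TATAAA on the other strand.

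KLK3: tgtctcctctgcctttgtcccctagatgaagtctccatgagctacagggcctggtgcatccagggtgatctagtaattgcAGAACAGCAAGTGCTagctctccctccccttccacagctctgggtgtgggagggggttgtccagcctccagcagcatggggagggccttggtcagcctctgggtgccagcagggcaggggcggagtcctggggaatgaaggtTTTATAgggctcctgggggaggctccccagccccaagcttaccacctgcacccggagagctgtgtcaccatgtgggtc
KLK2: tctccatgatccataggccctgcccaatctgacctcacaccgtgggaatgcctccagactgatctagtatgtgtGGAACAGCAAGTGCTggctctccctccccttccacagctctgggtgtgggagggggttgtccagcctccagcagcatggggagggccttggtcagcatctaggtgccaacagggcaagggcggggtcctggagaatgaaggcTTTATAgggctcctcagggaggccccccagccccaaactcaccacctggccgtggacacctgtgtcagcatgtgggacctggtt

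The 15-base element began 170 bases before the start of KLK3 and 176 bases before that of KLK2. In KLK3 it is a known androgen response element of this promoter, and its first 6 bases, AGAACA, are a core to which the receptor binds. The KLK2 copy differed by A1G, so these 6 letters are not in it. Positions are counted from 1 at the 5′ end of the element, with the KLK3 base given first. Whether the receptor binds the KLK2 copy was not tested here, and a search for exact letters cannot show it. These are the copies side by side:
KLK3 element: AGAACAGCAAGTGCT
KLK2 element: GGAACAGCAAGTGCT
Over the 300 bases the promoters of KLK3 and KLK2 were identical at 84.2% of 291 aligned positions, with an unbroken identical run of 80 bases. The next closest pair among the promoters of the 4 genes was KLK3 and a KLK15 start, at 62.1%. Short reads from such runs can be hard to assign to 1 gene, and how the authors treated them is not stated.

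Searched on both strands, AGAACA occurred in the KLK3 promoter and in none of the other promoters of the 4 genes. It was found in 14.8% of 35116 RefSeq promoters of the same length. The full palindrome, AGAACA and its reverse complement with any 3 bases between them, occurred in none of the promoters of the 4 genes and in 1 of the 35116. TATAAA was present 28 bases before the start of KLK3 and 34 before that of KLK2, on the strand opposite to the gene. It was also present 30 bases before a start of KLK15, there on the strand of the gene. TATAAA occurred in 11.5% of all promoters. RefSeq lists 1 start each for KLK3 and KLK2 and 2 starts each for KLK4 and KLK15. For KLK4 and KLK15 the class of a region can therefore depend on the start, and the starts used here are those of the hg19 spans.

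At KLK3 (chr19:51358171-51364020, plus strand, 5850 bp) the called Pol II sites lay at opposite ends of the gene. With DMSO the region was chr19:51364817-51365017, with its centre 897 bp past the gene end. With TBBz it was chr19:51358145-51358345, which runs from 26 bp before to 174 bp after the gene start. Whether Pol II was starting, paused or being released at these sites was not tested. Neither list had any other region between 1 kb before the gene and 3 kb past its end. The centres of these regions were 6672 bp apart, and each was the nearest region of its treatment to the other. The DMSO region stood at place 172 of its list and the TBBz region at place 3261 of its list, which are places in lists of unequal length and depth and are not a change in amount.

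At KLK2 (chr19:51376689-51383823, plus strand, 7135 bp) the arrangement was alike. The DMSO region chr19:51383399-51383599 had its centre 324 bp before the gene end, 95.5% of the way along the gene, at place 3122. The TBBz region chr19:51376205-51376405 had its centre 384 bp before the gene start, at place 8360. This region ended 284 bp before the hg19 start, whereas the promoter stretch printed above begins 250 bases before the RefSeq start. The centres were 7194 bp apart and were again nearest to each other. A further TBBz region, chr19:51372617-51372817, lay 3972 bp upstream of KLK2 at place 12755, and its nearest DMSO centre was 7800 bp away.

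**Figure D1:**
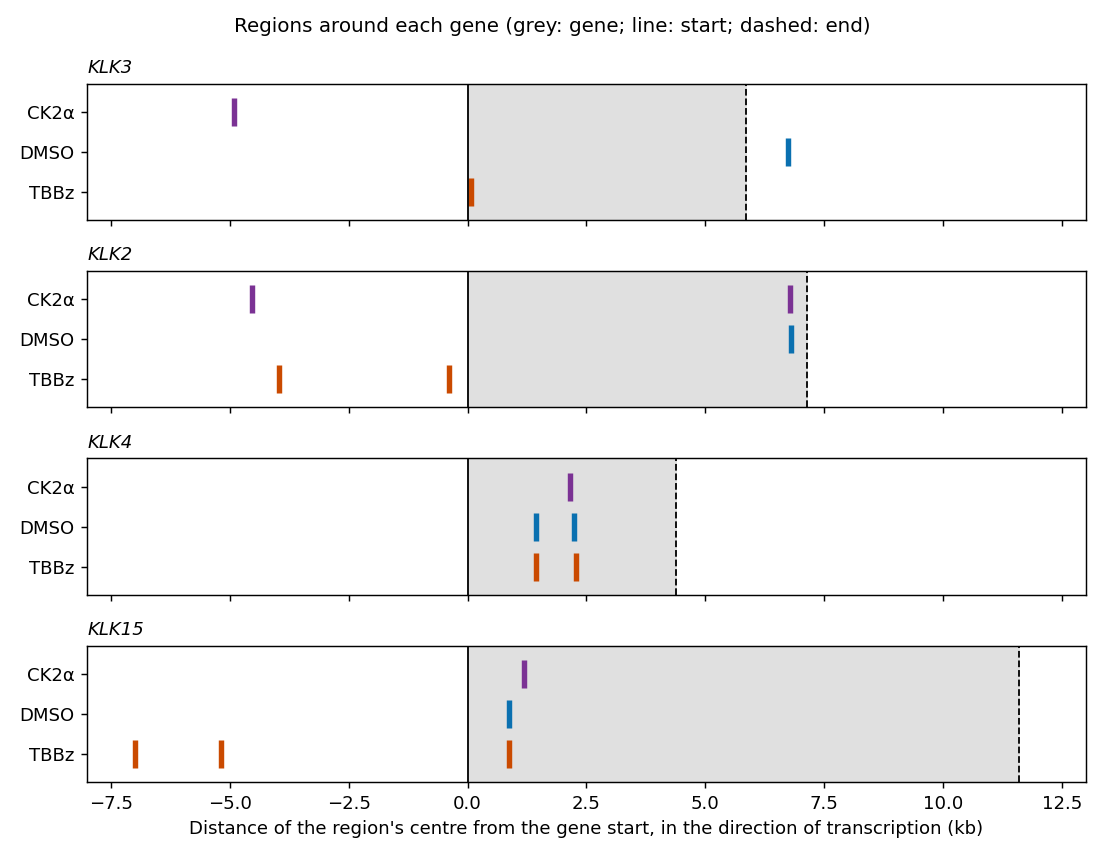
Centres of called regions around KLK3, KLK2, KLK4 and KLK15, in kb from each gene start in the direction of transcription, with 1 row per list (CK2α, Pol II with DMSO, Pol II with TBBz); grey marks the gene and the dashed line its end. DMSO regions sit near the ends of KLK3 and KLK2 and TBBz regions near their starts, while both lists coincide inside KLK4 and KLK15.

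For their place in the list, these DMSO regions at KLK3 and KLK2 lay far from any TBBz region. Over the whole DMSO list, 11.9% of regions were at least 6672 bp from the nearest TBBz centre and 11.6% at least 7194 bp, and the median distance was 33 bp. Such distant regions were concentrated late: in the last 2181 regions of the DMSO list 46.7% were at least 6672 bp away. In list order, the KLK3 region was the first and the KLK2 region the second of 2816 DMSO regions that lay more than 5 kb from any TBBz region. The next ones stood at places 3293 and 4223, on other chromosomes. Of all TBBz regions, 17.8% were as far from DMSO as the one at the KLK3 start and 17.5% as the one at the KLK2 start. These too were concentrated late: 16 of the first 2478 TBBz regions and 64.6% of the last 2478 were at least 6672 bp away. Up to and including the KLK3 region itself, 1 of 172 DMSO (0.581%) and 25 of 3261 TBBz regions (0.767%) were as far away. Up to the KLK2 region it was 1 of 3122 (0.0320%) and 61 of 8360 (0.730%). The TBBz regions at the gene starts were the 25th and the 71st of 4752 TBBz regions more than 5 kb from any DMSO region. The locus was chosen with such results known, and these shares and ranks are a description.

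**Figure D2:**
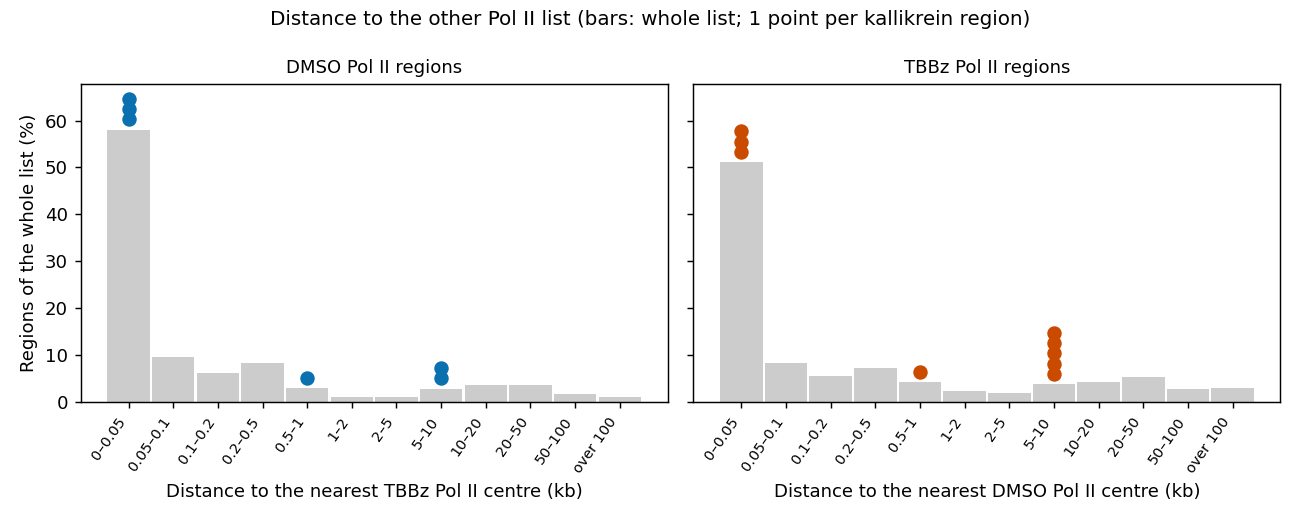
Distance from each Pol II region to the nearest centre of the other Pol II list, in kb and in unequal bins; bars give the share of the whole list in percent and each point is 1 kallikrein region stacked above its bin, so the height of a point is not a value. Of the DMSO regions 3 of 6, and of the TBBz regions 3 of 9, fall in the nearest bin, and 2 and 5 fall at 5 to 10 kb.

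KLK4 (chr19:51409608-51413994, minus strand, 4387 bp) showed the same Pol II sites in both treatments. With DMSO the regions were chr19:51412450-51412650 and chr19:51411644-51411844, at 32.9% and 51.3% of the way along the gene. With TBBz they were chr19:51412462-51412662 and chr19:51411610-51411810, with centres 12 bp and 34 bp from their DMSO partners. No region of any list lay at the start or past the end of KLK4. The site nearer the gene start was early in both lists, at place 349 with DMSO and 1203 with TBBz. The site farther in stood at place 1660 with DMSO and 11456 with TBBz. CK2α was called at the site farther in, at chr19:51411741-51411941 and place 368, the earliest of the CK2α regions in the locus.

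KLK15 (chr19:51328545-51340142, minus strand, 11598 bp) had 1 Pol II site, common to both treatments, near its start. The DMSO region chr19:51339164-51339364 and the TBBz region chr19:51339172-51339372 had centres 8 bp apart and lay 878 and 870 bp inside the gene. They stood at places 689 and 940. The CK2α region chr19:51338853-51339053 lay 311 bp farther into the gene than the DMSO centre and overlapped neither. Upstream of KLK15, towards KLK3, TBBz gave chr19:51345225-51345425 and chr19:51347036-51347236, which lay 5183 and 6994 bp before the KLK15 start. Both stood in the second 50% of the TBBz list, at places 12456 and 14018, and the nearest DMSO centre was 6061 and 7872 bp away.

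Between KLK2 and KLK4, where RefSeq places the pseudogene KLKP1, each list had 1 region. The DMSO region was chr19:51393715-51393915 at place 6687 and the TBBz region was chr19:51392743-51392943 at place 11709, with centres 972 bp apart. CK2α was called at chr19:51393558-51393758 at place 1750, the latest CK2α region of the locus. It overlapped the DMSO region by 44 bp and lay 815 bp from the TBBz centre. Whether these regions fall within KLKP1 was not analysed here, as its hg19 position was not at hand.

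**Figure D3:**
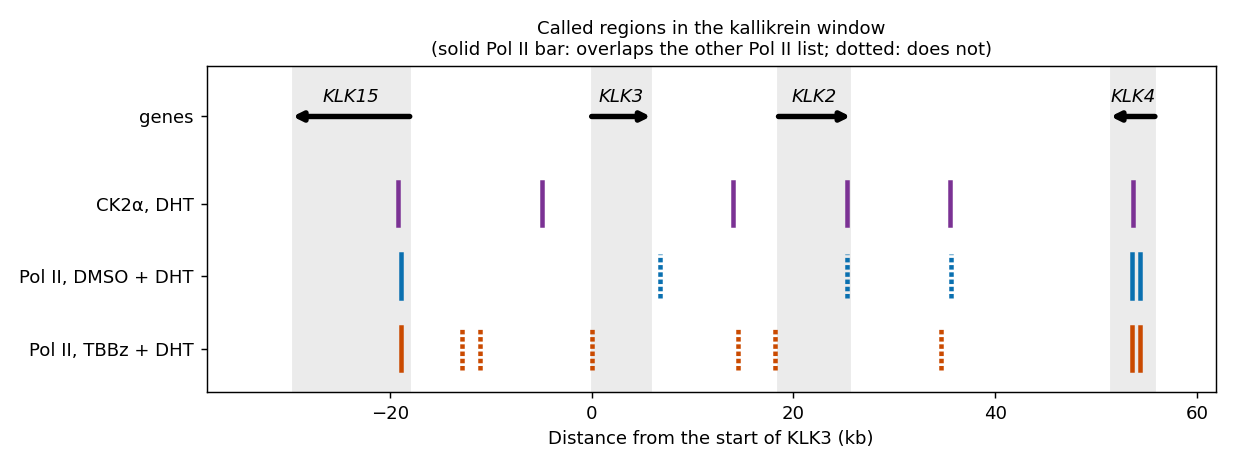
Called regions of each list (rows) over the 100 kb window, in kb from the start of KLK3; arrows give the genes and their direction, and each bar is 1 region, not drawn to width. Pol II bars are solid where they overlap the other Pol II list, as at KLK15 and KLK4, and dotted where they do not, as in the whole stretch between those genes.

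Counted over the locus, 3 of 6 DMSO regions (50%, interval 11.8 to 88.2%) did not overlap a TBBz region, against 26.2% of the whole DMSO list. Of the TBBz regions 6 of 9 (66.7%, 29.9 to 92.5%) did not overlap a DMSO region, against 35.0% of that list. No TBBz centre lay within 2 kb of 2 of 6 DMSO regions, against 13.9% of the list, and no DMSO centre within 2 kb of 5 of 9 TBBz regions, against 21.1%. Both intervals of overlap include the share of the whole list. For DMSO regions with no TBBz centre within 2 kb the interval (4.33 to 77.7%) also includes it. For TBBz regions with no DMSO centre within 2 kb the interval (21.2 to 86.3%) lies just above the 21.1% of the list. The intervals treat the regions as independent, although they are neighbours in a locus chosen with results known. The counts alone therefore cannot decide whether the locus stands apart. The shared sites were those in KLK15 and KLK4. The stretch between these genes, chr19:51340143-51409607, held the other 3 DMSO and 6 TBBz regions. As it is the part left between the shared sites, its lack of an overlap is a description only.

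Against the whole genome the locus was rich in regions of all 3 lists. Of 12051 windows of 100 kb that held any region, 0.656% had at least 6 CK2α regions, 3.50% had at least 6 DMSO Pol II regions and 1.11% had at least 9 TBBz Pol II regions. On chromosome 19, which is dense in genes, 11, 84 and 25 of 443 windows did so. The ratio of TBBz to DMSO region numbers in the locus was 1.5 (0.477 to 5.12), and divided by library totals it was 1.04. The interval spans equal numbers of Pol II regions. It covers counting error only and not the spread between libraries, so it is no test between treatments.

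CK2α was called in the locus at 6 sites, and none lay within 1 kb of a gene start. A pair of regions lay upstream of the KLK3 and KLK2 genes at like distances. The first, chr19:51353166-51353366, lay 4905 bp before KLK3, on the side of its known enhancer, and stood at place 764. Its nearest Pol II centre was that of the TBBz region at the KLK3 start, 4979 bp away, and the nearest DMSO centre was 11651 bp away. It was the 1 of 6 CK2α regions with no Pol II centre within 2 kb, against 16.4% of the CK2α list. The second, chr19:51372046-51372246, lay 4543 bp before KLK2 at place 509. Its nearest Pol II region was the upstream TBBz region of KLK2, 571 bp away, while the nearest DMSO centre was 7229 bp away.

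The remaining CK2α regions lay in or beyond genes, beside Pol II. At the end of KLK2, chr19:51383369-51383569 (place 698) had its centre 30 bp from the DMSO Pol II region and shared 171 bp with it. That region belongs to the DMSO list alone, so CK2α coincided there with a Pol II region called with vehicle and not called with TBBz. A missing call does not show that Pol II was absent there with TBBz. At KLK3 the region past the gene end had no such partner: its nearest CK2α centre was 7229 bp away. The TBBz regions at the starts of KLK3 and KLK2 were 4979 and 4159 bp from the nearest CK2α centre.

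In all, 3 of 6 CK2α regions (50%, 11.8 to 88.2%) overlapped a Pol II region of either list, against 43.9% of the whole CK2α list. All 3 overlapped DMSO Pol II, against 36.8% of the list, and 1 overlapped TBBz Pol II, against 36.0%. Those that overlapped DMSO and not TBBz were the regions at the KLK2 end and between KLK2 and KLK4, 2 of 6 (33.3%, 4.33 to 77.7%), against 7.94% of the list. None overlapped TBBz alone, against 7.10%, and with 6 regions the interval reaches 45.9%. Seen from the Pol II side, 3 of 6 DMSO regions overlapped CK2α, against 22.6% of the list, and 1 of 9 TBBz regions did, against 19.4%. The CK2α cells received no inhibitor, and no CK2α library with TBBz was analysed here.

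Places in the deposited order overlapped between the lists, which differ in length and depth. Of the CK2α regions 5 of 6 (83.3%, 35.9 to 99.6%) were in the first 10% of the CK2α list, and places ran from 2.75% to 13.1% with a median of 4.92%. Of the DMSO Pol II regions 4 of 6 (66.7%, 22.3 to 95.7%) were in the first 10%, with a range of 0.788% to 30.6% and a median of 5.38%. Of the TBBz Pol II regions 2 of 9 (22.2%, 2.81 to 60.0%) were, with a range of 3.79% to 56.6% and a median of 46.2%. By construction 10.0% of each list lies in its first 10%, and on chromosome 19 it was 14.6%, 9.24% and 11.5%. The TBBz regions in the first 10% were the shared site of KLK15 and the shared KLK4 site nearer the gene start, while the other shared KLK4 site stood at 46.2%. The TBBz regions that no DMSO region overlapped ran from 13.2% to 56.6%, led by the region at the KLK3 start, so shared and unshared regions overlapped in place. The lists hold no tag numbers for single regions, so it is an assumption that early regions are the stronger ones, and order carries no size.

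**Figure D4:**
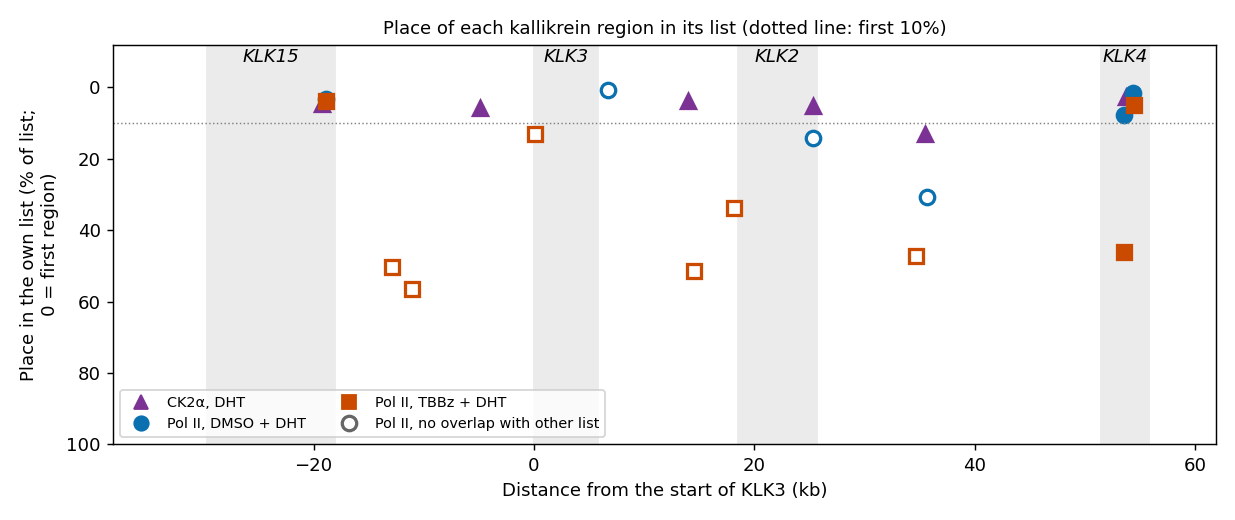
Place of each kallikrein region in its own list, as a percent of the list with the first region at the top, against distance from the start of KLK3 in kb; filled Pol II symbols overlap the other Pol II list, open ones do not, and the dotted line marks the first 10%. CK2α regions lie between 2.75% and 13.1%, the open TBBz symbols lie between 13.2% and 56.6%, and 1 filled TBBz symbol, at KLK4, lies among them at 46.2%.

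Just outside the window the Pol II lists overlapped on the KLK15 side and not on the KLK4 side. On the KLK15 side the nearest DMSO region, chr19:51307733-51307933 (place 162), overlapped a TBBz region whose centre was 27 bp away, and a CK2α region, chr19:51307414-51307614, lay 319 bp from it. The TBBz region nearest the window on that side was another one, chr19:51308309-51308509 (place 9396), which overlapped no region of the other lists. On the KLK4 side the nearest regions were CK2α chr19:51425471-51425671, DMSO chr19:51425571-51425771 and TBBz chr19:51425162-51425362. The DMSO and TBBz centres there were 409 bp apart, and the CK2α region overlapped the DMSO region. RefSeq orders the family as KLK1, KLK15, KLK3, KLK2, KLKP1, KLK4 and then KLK5 to KLK14, and the members other than the 4 genes were not analysed here, because their hg19 spans were not at hand.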

How the data were processed

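The deposited data were 1 list of regions per library. Per the submitters' processing notes, Bowtie and HOMER were used with the build hg19. The sources used here give no versions. Peaks were called in each library alone, per the file headers, with HOMER in factor style (size 200 bp, minimum distance 500 bp, fragment length 150 bp, false discovery rate 0.001) and without a control library in the command. The score deposited by the authors is 1 for every region and was not used. The authors' starts count from 0 and were raised by 1.

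The members and lists were chosen with earlier results of these data known. Every region with its centre in the window was named. Gene spans came from the rule that defines the locus. A gene start reached 1 kb to either side, past the end 3 kb and upstream 10 kb. Overlap meant at least 1 bp, and distances run between centres. The position functions were tested on simulated data. Promoters were aligned globally with Biopython 1.88. Intervals used SciPy 1.17.1, tables pandas 2.3.3 and NumPy 2.4.6, and plots Matplotlib 3.10.9, all under Python 3.11.15. Exons, introns and the sequence of the regions were not analysed here.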

Additional observations from a re-analysis of the deposited data

How the results depend on the processing

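Of 68 alternative values, 64 stayed within 1.5 times the reported count or within its counting interval. This tally overstates stability, because some alternatives could not change their count. The past-end and upstream limits cannot alter gene start or gene body counts, and the upstream limit cannot alter past-end counts. All TBBz regions of the locus also stood within the length of the DMSO list, so shortening the TBBz list could not remove any. The offset of the 100 kb windows was chosen after the data were seen, and the other alternatives were planned. The number of shared Pol II regions was 3 in each list with centres within 500 bp and with 50% overlap, and 4 within 2 kb, where the pair between KLK2 and KLK4 joins. CK2α regions on Pol II numbered 5 with centres within 2 kb, against 3 with overlap, 4 within 500 bp and 2 with 50% overlap. With gene starts of 500 bp the DMSO list had 0 regions at a gene start, against 1. With upstream limited to 5 kb, 1 TBBz region was upstream, against 3, and 3 lay between genes, against 1. These changes follow from the definitions. With the window widened by 50 kb to each side it held 9 CK2α, 8 DMSO and 12 TBBz regions. No paired analysis was possible because there was a single library in every group. What depth limits here was not tested, since the lists hold no reads to thin.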
